A study of Mus musculus with 28 samples.

Results

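The transcription factors Cdx2, Tfap2c, Elf5, Gata3 and Hand1, which are known for their roles in trophoblast, were followed as a set of 5 genes through a series of RNA-seq libraries from mouse embryonic stem (ES) cells. The 5 genes are named by symbol, by a rule that uses no measured value, among the 24116 Entrez gene IDs that the deposited count tables list, and the set was proposed with earlier results of these data known. A gene whose group mean was under 1 CPM (a count scaled to library size) was marked as not measured in that group.

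Trophoblast is the outer lineage of the blastocyst, which implants and builds the embryonic part of the placenta, and mouse ES cells, which derive from the inner lineage, do not normally enter it. Cdx2 and Gata3 act early in the trophectoderm below the Hippo pathway factor Tead4, Elf5 and Tfap2c maintain trophoblast stem cells together with Eomes, and Hand1 promotes the later trophoblast giant cells. None of the 5 is exclusive to trophoblast: Cdx2 is also a Wnt-responsive gene of the posterior primitive streak, Tfap2c acts in primordial germ cells and in naive pluripotent cells, Gata3 acts in T cells, and Hand1 acts in mesoderm and heart.

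The cells were female RGd2 ES cells, a line in which a destabilised GFP reports the naive gene Rex1, and all groups share that reporter. They were sampled in 2i, a medium with the Gsk3 inhibitor CHIR99021 and the Mek inhibitor PD0325901 (the stage named ESC), and again at 16 h or 32 h of culture without 2i. A ribo-depleted set held Zfp281 KO and WT cells at ESC, 16 h and 32 h, and a polyA set held Ehmt1/Zic2 KO, Ehmt1 KO, Zic2 KO and WT cells at ESC and 32 h. Zfp281 and Zic2 are zinc finger transcription factors, and Ehmt1 is a histone H3 lysine 9 methyltransferase. Each of the 14 groups had 2 libraries. These came from clones KO1 and KO2 of a genotype, from lines named WT and Zfp281_WT in the ribo-depleted WT groups, or from lines named Ehmt1_WT and Zic2_WT in the polyA WT groups. Library 1 and library 2 below keep that order. How the genes were disrupted is not given in the sources used here, and a p-value here measures the spread between clones and lines with n = 2 per group. A run that leaves out a library or a WT line keeps 1 library in each group it touches. The spread within such a group does not enter the p-values or calls of that run. The comparisons within a set share their WT libraries, and a group enters both a genotype and a stage comparison, so their values are given side by side. How many of all genes separate fully between 2 groups was not counted. Statements that groups lay above, below or apart from each other describe the libraries only.

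Library totals ran from 18086421 to 35911590 counts for ribo-depleted RNA at ESC or 32 h, from 28538287 to 36365192 for the 16 h table and from 19013882 to 28777604 for polyA RNA. Ehmt1 was at 17.6 to 31.35 CPM in the 8 Ehmt1 KO and Ehmt1/Zic2 KO libraries and at 80.3 to 153.5 CPM in the 4 polyA WT libraries. Zfp281 was at 278 to 350 CPM in its KO clones, against 238 to 309 CPM in WT cells, at ESC and 32 h. Zic2 was at 107 to 228 CPM in Zic2 KO and at 66.5 to 207.5 CPM in Ehmt1/Zic2 KO cells, against 105 to 145.5 CPM in polyA WT cells. Which stretch of these genes was disrupted is not stated, so their levels check nothing. Pou5f1, the defining ES cell factor, was at 904 to 1888 CPM across the 28 libraries. Of 1101 olfactory receptor genes, a family ES cells do not normally use, 89.1% had a count in the line Zfp281_WT at ESC and 86.9% at 32 h. In the other 6 libraries made from ribo-depleted RNA at ESC or 32 h the share was 11.2% to 24.7%, and the same line had 8.72% at 16 h. Values without this line are given beside the tested WT results below that it enters for Cdx2, Tfap2c, Gata3 and Hand1.

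Tfap2c was at 1 CPM or more in 14 of 14 groups, Cdx2 in 8, Gata3 in 7, Hand1 in 6 and Elf5 in 1. On the scale of CPM per kilobase of exon, the order in polyA WT cells at ESC was Tfap2c at 12.4, Cdx2 at 4.47, Hand1 at 0.410, Gata3 at 0.306 and Elf5 at 0.0126. Hand1 and Gata3 overlapped in that order, with Hand1 at 0.595 and 0.226 and Gata3 at 0.323 and 0.290 CPM per kilobase in the WT libraries. In Ehmt1 KO cells at ESC, Cdx2 averaged 15.7 and Tfap2c 11.8 CPM per kilobase.

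Cdx2 (Entrez 12591, GRCm38 chromosome 5, 147300900 to 147307249, protein coding) is the caudal-type homeobox factor that is required for trophectoderm. Its mRNA was highest in 2i and lower at 32 h in every genotype, and its level in 2i was higher in Zfp281 KO and in Ehmt1 KO cells than in WT cells. The bases upstream of its RefSeq start are shown because Cdx2 is the member with the widest range of levels.

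Cdx2 promoter, chr5:147307271-147307499, minus strand, GRCm38.p6: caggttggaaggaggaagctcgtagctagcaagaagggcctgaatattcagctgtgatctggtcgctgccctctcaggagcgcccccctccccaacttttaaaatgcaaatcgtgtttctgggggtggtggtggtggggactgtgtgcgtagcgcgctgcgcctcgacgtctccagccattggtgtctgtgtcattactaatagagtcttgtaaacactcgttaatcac

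These 229 bases are what remains of the 250 upstream of the start after 21 bases that overlap annotated exons were left out. RefSeq windows were held for 3 of the 5 members. Searched on both strands, the Tcf/Lef letters CTTTGAT, the Zfp281 letters GGGGGAGGG, the Zic letters CCTGCTG, the Tfap2 letters GCCNNNGGC and the Gata letters AGATAA had no match in the printed Cdx2 bases, and the whole window held 1 match, of the Tfap2 letters. They had a match in 3.21%, 4.65%, 8.44%, 13.7% and 9.99% of 32851 windows of 250 bases in the RefSeq table.

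In Zfp281 KO cells at ESC, Cdx2 was at 10.04 and 10.27 CPM, against 3.14 and 1.30 CPM in WT cells. Both KO clones lay above both WT lines, and the 2 clones differed by less than the 2 WT lines did. The log2 fold change was 2.15 ± 0.35 (SE; adjusted p = 0.0041), and Cdx2 was the 1 member of 5 called in this comparison, where 13.8% of 18971 genes were called. Without the line Zfp281_WT at both stages the log2 fold change was 1.63, and without the line WT it was 2.98. Without KO clone 1 or KO clone 2 at ESC it was 2.14 or 2.12 (adjusted p = 0.063 or 0.072). In these bulk libraries, fewer cells that express a gene and less of its RNA per cell cannot be told apart.

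At 16 h, Cdx2 was at 0.138 and 0.137 CPM in Zfp281 KO cells, against 0.251 and 0.399 CPM in WT cells, and did not pass the filter for a test. At 32 h it was at 0.388 and 0.230 CPM in Zfp281 KO cells, against 0.310 and 0.303 CPM in WT cells, and the groups overlapped (log2 fold change 0.02, adjusted p = 0.98; -0.02, adjusted p = 0.98, without Zfp281_WT). At both times these values stand for 4 to 14 counts per library, and Cdx2 was not measured there by the 1 CPM limit. The 16 h table was normalised on its own, so its levels are set beside the others with no test.

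In Ehmt1 KO cells at ESC, Cdx2 was at 20.3 and 50.7 CPM, against 12.5 and 7.71 CPM in WT cells. Both clones lay above both WT lines, and clone 2 had the highest Cdx2 level of all 28 libraries. The log2 fold change was 1.81 ± 0.48 (adjusted p = 0.014), and Cdx2 was again the 1 member of 5 called, in a comparison that called 26.9% of 15667 genes. Without KO clone 2 it was 1.02 (adjusted p = 0.16), and without the WT line Zic2_WT it was 1.53 (adjusted p = 0.099).

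Cdx2 at ESC was at 13.6 and 11.4 CPM in Ehmt1/Zic2 KO cells, and at 10.5 and 8.74 CPM in Zic2 KO cells. The ranges of both genotypes overlapped that of WT cells, and neither was called (log2 fold change 0.31 ± 0.48, adjusted p = 0.64, and -0.07 ± 0.48, adjusted p = 0.99). Set directly against Ehmt1 KO cells, the Ehmt1/Zic2 KO cells were lower in both clones, with a log2 fold change of -1.50 ± 0.47 that was not called (adjusted p = 0.28). No member was called between these KO genotypes at ESC, where 0.0957% of genes were.

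At 32 h, Cdx2 was at 0.101 and 0.547 CPM in Ehmt1/Zic2 KO cells and at 0.140 and 0.558 CPM in Ehmt1 KO cells, against 0.877 and 2.07 CPM in WT cells. Both KO genotypes lay below both WT lines, and in each of them clone 1 was at 3 counts. The Ehmt1/Zic2 KO difference was called (log2 fold change -2.20 ± 0.73, adjusted p = 0.03) and the Ehmt1 KO difference was not (-2.02 ± 0.74, adjusted p = 0.061). The first of these was -1.42 without KO clone 1 (adjusted p = 0.19) and -1.45 without Zic2_WT (adjusted p = 0.25). Zic2 KO cells had 1.14 and 1.19 CPM, between the WT lines.

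**Figure D1:**
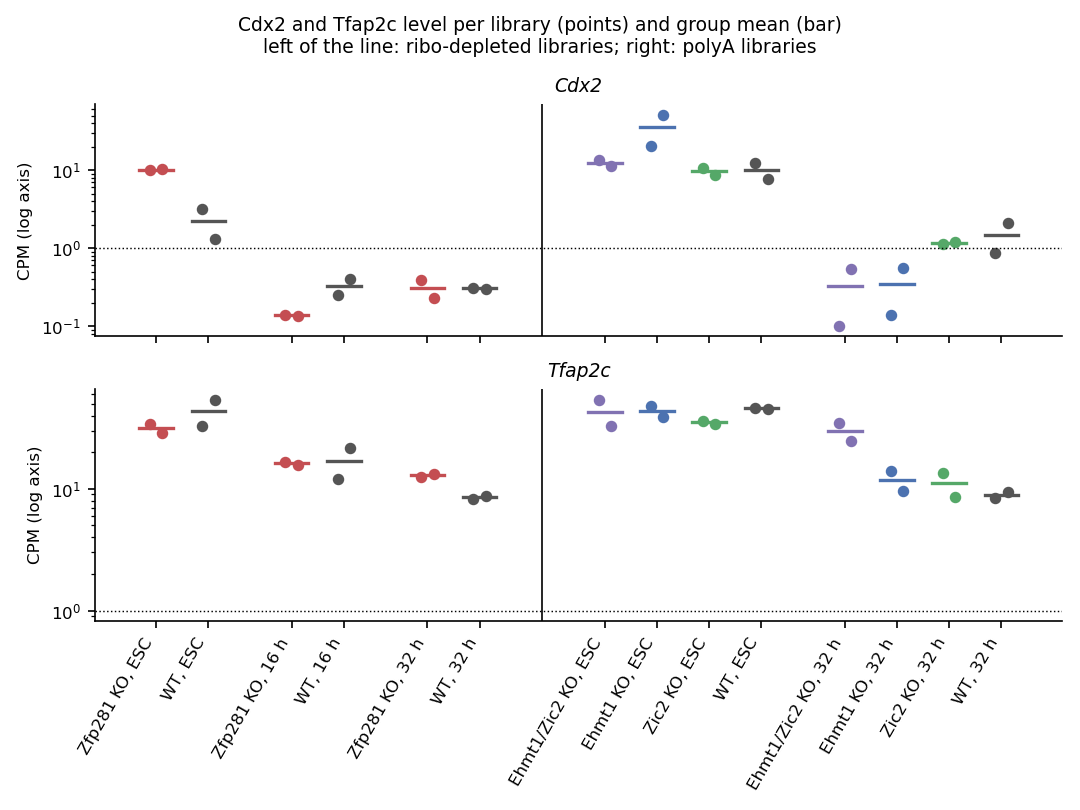
CPM of Cdx2 and Tfap2c on a log axis in each of 28 libraries (points; clone or line 1 on the left of a pair), with the mean of 2 as a bar and the 1 CPM limit as a dotted line. Cdx2 reached 20.3 and 50.7 CPM in Ehmt1 KO cells at ESC and was under 1 CPM at 32 h in Ehmt1/Zic2 KO and Ehmt1 KO cells, while Tfap2c stayed above 8 CPM in every library.

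Between 2i and 32 h, Cdx2 fell in all 6 genotype and kit groups, and its level was lower at 32 h in all 12 lines. In WT cells the lines WT and Zfp281_WT were at 0.310 and 0.303 CPM at 32 h and at 3.14 and 1.30 CPM at ESC. The log2 fold change was -2.88 ± 0.45 (adjusted p = 0.0012), and without Zfp281_WT it was -3.43. In the polyA WT lines the log2 fold change was -2.77 ± 0.55 (adjusted p = 0.0018), and in Zic2 KO cells it was -3.04 ± 0.56 (adjusted p = 0.0012). It was larger in size in Zfp281 KO cells (-5.01 ± 0.44, adjusted p = 5.4e-05; -5.08 without Zfp281_WT in the fit), in Ehmt1/Zic2 KO cells (-5.28 ± 0.66, adjusted p = 0.00023) and in Ehmt1 KO cells (-6.60 ± 0.67, adjusted p = 2.9e-05). The KO values at 32 h rest on 3 to 15 counts per library in the Ehmt1-lacking clones.

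The difference in this response between KO and WT cells was tested as an interaction. For Ehmt1 KO cells it was -3.83 ± 0.88 on the log2 scale and was called (adjusted p = 0.046), the 1 member of 5 in a test that called 1.86% of genes. It ranged from -5.17 to -3.02 when a library was left out in turn. The call was lost without Ehmt1_WT or Zic2_WT at either stage, without KO clone 2 at ESC and without KO clone 1 at 32 h (adjusted p = 0.072 to 0.26). Each line was sampled at both stages, so the interaction was also fitted with the line as a block. For Zfp281 KO cells it was then -2.14 (adjusted p = 0.021), against -2.13 ± 0.66 (adjusted p = 0.13) without the block. Without the line Zfp281_WT it was -1.65, and without the line WT it was -2.93. For Ehmt1/Zic2 KO cells it was -2.54 with the block (adjusted p = 0.045), against -2.51 ± 0.88 (adjusted p = 0.12) without it. For Zic2 KO cells it was -0.28 ± 0.78 (adjusted p = 1). The block called more of all genes in the interactions of Zfp281 KO, Ehmt1 KO and Ehmt1/Zic2 KO cells, as counted in the closing section. The shares of genes called in interactions are without the block, so the blocked calls are not set beside them.

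The paralog Cdx1, a caudal-type factor that responds directly to Wnt signalling, fell at 32 h in all 6 groups, with log2 fold changes of -5.23 in Ehmt1/Zic2 KO cells to -9.00 in Zic2 KO cells. At ESC its order among genotypes was not that of Cdx2. Cdx1 was at 5.60 and 20.3 CPM in Ehmt1 KO cells and at 8.94 and 5.98 CPM in Ehmt1/Zic2 KO cells, against 68.4 and 45.4 CPM in WT cells, and both KO genotypes lay below both WT lines. The log2 fold changes were -2.14 ± 0.48 (adjusted p = 0.0052) and -2.93 ± 0.50 (adjusted p = 0.00064). In Ehmt1 KO clone 2, which had the highest Cdx2, Cdx1 was also higher than in clone 1. In Zfp281 KO cells at ESC, Cdx1 was at 5.04 and 5.70 CPM, against 6.64 and 4.88 CPM in WT cells (adjusted p = 0.81).

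Of 10 Wnt targets, 6 fell and 2 rose at 32 h in WT cells of each kit (Cdx1 included), with a median log2 fold change of -1.23 in the ribo-depleted and -1.57 in the polyA set, against 0.02 and 0.01 over all genes tested, where 25.9% and 35.7% of genes were called. Axin2, a feedback inhibitor of Wnt signalling, changed by -2.36 and -2.79 on the log2 scale, Sp5 by -4.72 and -6.36, and Lef1, a Wnt transcription factor, by 1.78 and 1.72. The summed level of the list was 373 to 416 CPM at 32 h and 490 to 524 CPM at ESC in ribo-depleted WT libraries. Their part in the Cdx2 result was not tested, and 2i itself contains a Gsk3 inhibitor that is withdrawn between these stages.

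Tfap2c (Entrez 21420, GRCm38 chromosome 2, 172545678 to 172558622, protein coding) encodes the transcription factor AP-2 gamma, which maintains trophoblast stem cells and is also needed for germ cells. Per kilobase it was the member with the highest level at 32 h in every group. It was lower at 32 h than at ESC in every line sampled at both stages, and this fall was called in 5 of 6 groups. At 32 h it was higher in Ehmt1/Zic2 KO cells than in WT cells. No promoter window of Tfap2c was held.

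In the polyA set at ESC, Tfap2c was at 53.5 and 32.7 CPM in Ehmt1/Zic2 KO cells, at 47.5 and 39.0 CPM in Ehmt1 KO cells and at 36.1 and 34.04 CPM in Zic2 KO cells, against 46.4 and 45.0 CPM in WT cells. Only the Zic2 KO clones lay wholly below WT, and none of these differences was called (adjusted p = 0.82, 0.85 and 0.69). At 32 h, Tfap2c was at 34.95 and 24.6 CPM in Ehmt1/Zic2 KO cells, at 13.9 and 9.56 CPM in Ehmt1 KO cells and at 13.5 and 8.64 CPM in Zic2 KO cells, against 8.33 and 9.33 CPM in WT cells. Both Ehmt1/Zic2 KO clones lay above every other polyA library of that stage.

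The Ehmt1/Zic2 KO level at 32 h was 3.37-fold that of WT cells (log2 fold change 1.75 ± 0.27, adjusted p = 0.00038) and 2.69-fold that of Zic2 KO cells (1.43 ± 0.27, adjusted p = 0.0015). Both calls held in each alternative run, leaving out each library included. Against Ehmt1 KO cells it was 1.35 ± 0.27 (adjusted p = 0.074), where 0.223% of genes were called and no member was. Neither single KO was called against WT cells at 32 h (Ehmt1 KO 0.41 ± 0.28, adjusted p = 0.31; Zic2 KO 0.32 ± 0.28, adjusted p = 0.81).

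The fall of Tfap2c between ESC and 32 h was -2.37 ± 0.28 in polyA WT cells (adjusted p = 3.6e-05), -1.88 ± 0.27 in Ehmt1 KO cells (adjusted p = 0.00037) and -1.67 ± 0.27 in Zic2 KO cells (adjusted p = 0.00049). In Ehmt1/Zic2 KO cells the change was -0.53 ± 0.26 (adjusted p = 0.2), and with the line as a block it was -0.52 (adjusted p = 0.012). The block also called more of all genes between the stages of these cells. Clone by clone, Tfap2c at 32 h kept 0.653 and 0.753 of its ESC level in Ehmt1/Zic2 KO cells, against 0.180 and 0.208 in the WT lines. The interaction of Ehmt1/Zic2 KO with stage was 1.84 ± 0.38 (adjusted p = 0.014), the 1 member of 5 called where 5.29% of genes were. It ranged from 1.56 to 2.25 when a library was left out. The call was lost without Ehmt1_WT at ESC (1.81, adjusted p = 0.055), without Ehmt1_WT at 32 h (1.76, adjusted p = 0.073) and without Zic2_WT at 32 h (1.92, adjusted p = 0.054). The interactions of the single KO genotypes were 0.48 ± 0.38 for Ehmt1 KO (adjusted p = 0.66) and 0.70 ± 0.38 for Zic2 KO (adjusted p = 0.99).

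In the ribo-depleted set, Tfap2c was lower at each later stage in each line. In Zfp281 KO cells it was at 33.8 and 28.9 CPM at ESC, 16.6 and 15.7 CPM at 16 h, and 12.5 and 13.3 CPM at 32 h. In WT cells it was at 32.9 and 53.9 CPM at ESC, 11.9 and 21.6 CPM at 16 h, and 8.28 and 8.78 CPM at 32 h. The WT lines differed most at ESC and 16 h and the KO clones lay above them only at 32 h. At ESC the log2 difference was -0.46 ± 0.20 (adjusted p = 0.17), and -0.14 without Zfp281_WT (adjusted p = 0.31). Without the line WT it was -0.77 with that line left out at both stages and -0.66 with that line left out at ESC.

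The log2 fold change at 32 h against ESC was -1.28 ± 0.21 in Zfp281 KO cells (adjusted p = 0.0024) and -2.34 ± 0.22 in WT cells (adjusted p = 8.8e-05). Without Zfp281_WT these were -1.35 and -2.09. Against WT at 32 h, Zfp281 KO cells were at 0.60 ± 0.22 on the log2 scale (adjusted p = 0.079) and no member was called, where 28.5% of genes were. Without the line Zfp281_WT this difference was 0.60, and without the line WT 0.56. The interaction was 1.06 ± 0.30 (adjusted p = 0.1), and 1.02 with the line as a block (adjusted p = 0.01). It was 0.74 without Zfp281_WT and 1.33 without the line WT. No member was called in the interaction without the block, where 4.14% of genes were. The block called more of all genes in that interaction. At 16 h the log2 difference was -0.06 ± 0.28 (adjusted p = 0.9), with both KO clones between the WT lines. Its sign depended on the WT line, with 0.43 without Zfp281_WT and -0.41 without the line WT. With all libraries, 0 of the 3 members tested were called, where 28.6% of 15139 genes were.

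Markers of ES cells and of germ cells were counted in Ehmt1/Zic2 KO cells at 32 h, where 39.1% of all genes were called, 21.4% as higher. Of 6 ES cell markers, 5 were higher there than in WT cells (median log2 fold change 2.27 for the list, 0.02 over all genes), and Pou5f1 was lower. Their summed level was 2280 to 2350 CPM in Ehmt1/Zic2 KO cells, against 1779 to 1836 CPM in WT cells. Of 7 primordial germ cell markers, none of them at 0, 4 were higher and 1 was lower, and their sum was 142 to 235 CPM against 58.9 to 71.8 CPM in WT cells. Prdm14, a factor of germ cells and naive cells, was higher by 3.54 ± 0.26 on the log2 scale, while Ddx4, a later germ cell helicase, was lower (-1.15 ± 0.21). At ESC the germ cell markers already summed to 208 to 390 CPM in Ehmt1/Zic2 KO cells, against 95.8 to 98.9 CPM in WT cells. Tfap2c was not called between these groups at ESC (adjusted p = 0.82). The part of these genes in the Tfap2c result was not tested.

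Elf5 (Entrez 13711, GRCm38 chromosome 2, 103412098 to 103450989, protein coding) is an Ets-family factor that maintains trophoblast stem cells, and its promoter is known to be methylated in ES cells. It was at 1 CPM or more in only 1 group, ribo-depleted WT cells at ESC, and there only through the line Zfp281_WT. In the polyA set its few counts lay mostly in the lines that lack Ehmt1. The RefSeq table holds 2 starts. The 250 bases before the start at 103412098 overlap annotated exons over their whole length and are not printed. They hold 2 CG dinucleotides, and 29% of windows have as few. The bases before the start at 103424068 are shown because Elf5 is known for its methylated promoter, with a match to the Tcf/Lef letters in capitals.

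Elf5 promoter, chr2:103423818-103424061, plus strand, GRCm38.p6: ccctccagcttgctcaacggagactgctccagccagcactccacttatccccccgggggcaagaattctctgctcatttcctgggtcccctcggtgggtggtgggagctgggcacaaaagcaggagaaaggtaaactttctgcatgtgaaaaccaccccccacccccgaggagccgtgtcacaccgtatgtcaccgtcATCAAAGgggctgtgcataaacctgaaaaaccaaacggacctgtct

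The capitals, at position -52 relative to the start, are CTTTGAT read on the other strand, which occurs in 3.21% of windows. The other searched motifs had no match in these 244 bases, which hold 8 CG dinucleotides, where the median over all windows of 250 bases was 6.

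In the polyA libraries, Elf5 had 3 to 19 counts in each of the 8 Ehmt1 KO and Ehmt1/Zic2 KO libraries, 76 in all. In the 8 WT and Zic2 KO libraries it had 0 to 2 counts, 6 in all, in 5 libraries. These 2 sets of libraries did not overlap, although no polyA group reached 1 CPM. At 32 h, Ehmt1/Zic2 KO cells had 11 and 13 counts and Ehmt1 KO cells had 10 and 3, against 0 and 0 in WT cells. Against a floor of 3 counts over the WT group, Elf5 was at least 6.58-fold higher in Ehmt1/Zic2 KO cells and at least 4.36-fold higher in Ehmt1 KO cells. Each bound pools the counts of both clones. Ehmt1 KO clone 2, at 0.1195 CPM, lay below the level of 3 counts in either WT library (0.132 and 0.124 CPM). That clone alone gives no bound.

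In the polyA set Elf5 passed the low-count filter only through libraries that lack Ehmt1, so the calls below are a description and support nothing on their own. Both differences were called (adjusted p = 0.0083 and 0.029; 0.0046 and 0.02 with no filter), as was that of Ehmt1/Zic2 KO against Zic2 KO cells at 32 h (adjusted p = 0.019). They rest on very few counts. The Ehmt1 KO call was lost without KO clone 1 (adjusted p = 0.18), without Ehmt1_WT (0.11) and without Zic2_WT (0.12). The call of Ehmt1/Zic2 KO against WT was at the threshold without Zic2_WT (adjusted p = 0.05). The call against Zic2 KO was lost without either Zic2 KO clone (adjusted p = 0.054 and 0.13) and without Ehmt1/Zic2 KO clone 2 (0.066). At ESC the counts were 10 and 7 in Ehmt1/Zic2 KO and 19 and 3 in Ehmt1 KO cells, against 1 and 2 in WT cells, and were not called (adjusted p = 0.084 and 0.056).

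Elf5 aside, Tfap2c was called higher and Cdx2 lower in Ehmt1/Zic2 KO cells at 32 h, where 39.1% of 15667 genes were called. In Ehmt1 KO cells at 32 h no other member was called, where 26.6% of genes were. Against Zic2 KO cells, Tfap2c was called in Ehmt1/Zic2 KO cells at 32 h, where 36.0% were. In Zic2 KO cells no member was called against WT at ESC or at 32 h, where 0.274% and 0.0766% of genes were.

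Olfactory receptor genes also had more counts in the lines that lack Ehmt1. In the 8 Ehmt1 KO and Ehmt1/Zic2 KO libraries 4.54% to 7.72% of the 1101 genes had a count, against 1.73% to 3.36% in the 8 WT and Zic2 KO libraries. At their mean level per kilobase, a gene of the exonic length of Elf5 would have had 0.593 to 1.18 counts in the KO libraries, where Elf5 had 3 to 19. Whether these move for the same reason was not tested.

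In the ribo-depleted set, Elf5 at ESC was at 0.513 and 0.398 CPM in Zfp281 KO cells, against 0.246 and 1.99 CPM in WT cells. At 32 h it was at 0.106 and 0.345 CPM in Zfp281 KO cells, against 0.155 and 1.36 CPM in WT cells. Each WT mean was set by Zfp281_WT, and without that line no group reaches 1 CPM. The log2 difference was -1.27 ± 1.23 at ESC (adjusted p = 0.51) and -1.73 ± 1.28 at 32 h (adjusted p = 0.36). Its sign depended on the WT line. It was 0.82 and 0.47 without Zfp281_WT, and -2.11 and -2.60 without the line WT. Elf5 in Zfp281_WT was at 0.339 and 0.232 CPM per kilobase, where the mean olfactory receptor gene was at 0.0817 and 0.0584. At 16 h all 4 libraries had 6 counts or fewer, Zfp281_WT with 1 among them.

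**Figure D2:**
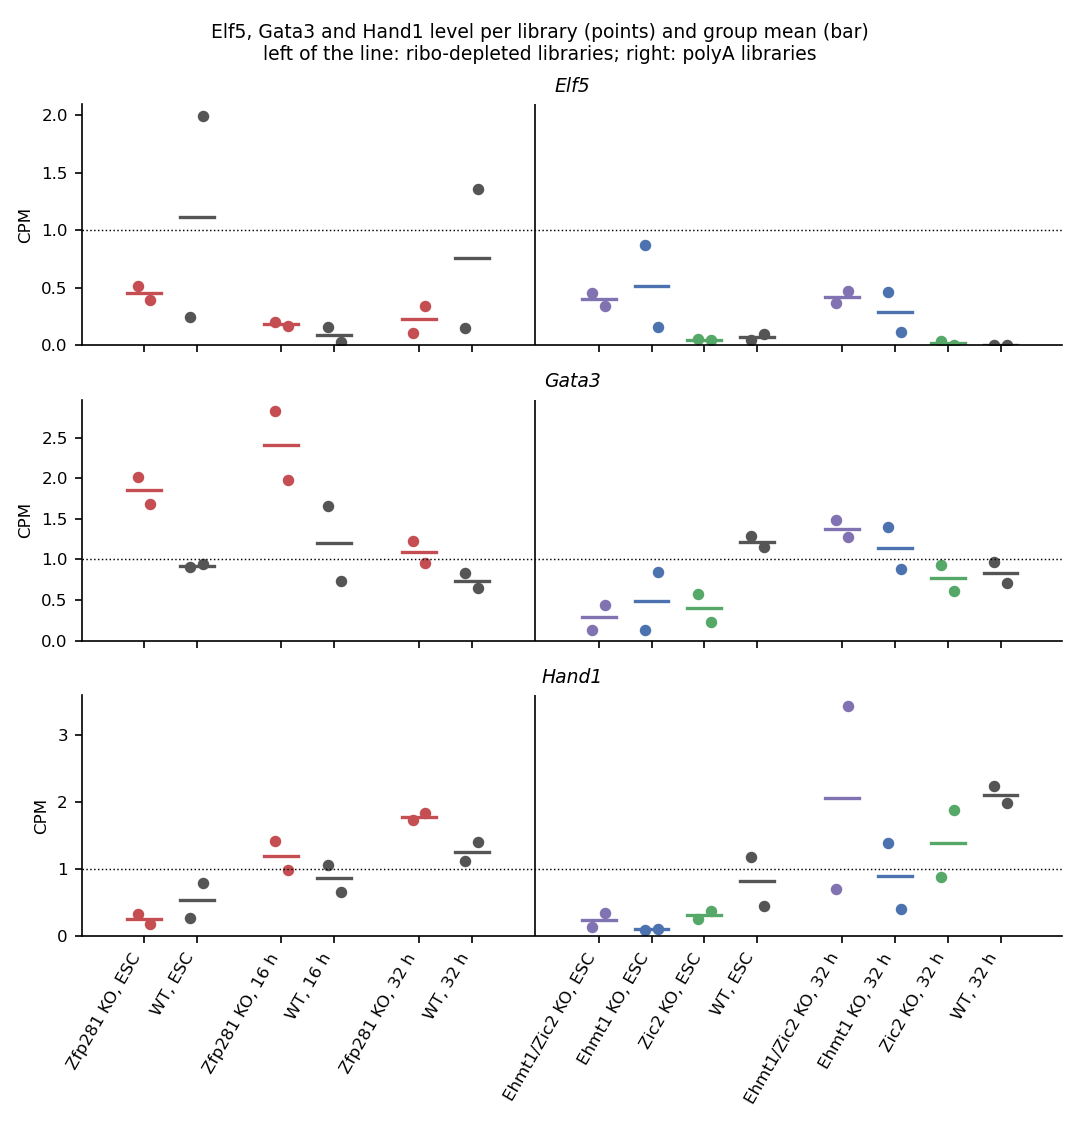
CPM of Elf5, Gata3 and Hand1 on linear axes in each of 28 libraries (points), with the mean of 2 as a bar and the 1 CPM limit as a dotted line. Elf5 passed 1 CPM in the Zfp281_WT line only, Gata3 was highest in Zfp281 KO cells at 16 h, and Hand1 was higher at 32 h than at ESC in each genotype of each kit.

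Gata3 (Entrez 14462, GRCm38 chromosome 2, 9857078 to 9887953, protein coding) is a zinc finger factor of the trophectoderm that also acts in later tissues. It stayed between 0.138 and 2.83 CPM in all libraries. By the 1 CPM limit it was measured in 7 of 14 groups, and in no KO group of the polyA set at ESC. Its response to 2i withdrawal differed in direction among lines. Gata3 was lower at 32 h in all 4 WT lines and both Zfp281 KO clones. It was higher at 32 h in all 6 Ehmt1/Zic2 KO, Ehmt1 KO and Zic2 KO clones. The change was small in line WT (0.902 CPM at ESC, 0.838 CPM at 32 h) and in Ehmt1 KO clone 2 (0.844 and 0.877 CPM). Only the Ehmt1/Zic2 KO change was called, with adjusted p = 0.19 to 0.79 in the other groups. The RefSeq window of Gata3 overlaps annotated exons over its whole length and is not printed.

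In the polyA set at ESC, Gata3 was at 0.138 and 0.438 CPM in Ehmt1/Zic2 KO cells, at 0.138 and 0.844 CPM in Ehmt1 KO cells and at 0.575 and 0.233 CPM in Zic2 KO cells, against 1.28 and 1.15 CPM in WT cells. All 6 KO clones lay below both WT lines, on 3 to 16 counts each. Gata3 was the 1 member called in Ehmt1/Zic2 KO cells at ESC (log2 fold change -2.08 ± 0.68, adjusted p = 0.028), where 39.4% of genes were. The call was lost without Ehmt1_WT (adjusted p = 0.1), without Zic2_WT (0.064) or without KO clone 1 (0.18). The Ehmt1 KO and Zic2 KO values were -1.34 ± 0.64 (adjusted p = 0.14) and -1.60 ± 0.65 (adjusted p = 0.43).

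At 32 h, Gata3 was at 1.48 and 1.28 CPM in Ehmt1/Zic2 KO cells, at 1.39 and 0.877 CPM in Ehmt1 KO cells and at 0.927 and 0.614 CPM in Zic2 KO cells, against 0.965 and 0.705 CPM in WT cells. The Ehmt1/Zic2 KO clones lay above WT and the other genotypes overlapped it, with no call. Between ESC and 32 h Gata3 rose by 2.26 ± 0.66 on the log2 scale in Ehmt1/Zic2 KO cells (adjusted p = 0.038), and the call was lost without clone 1 at ESC (1.62, adjusted p = 0.24), without clone 1 at 32 h (2.12, adjusted p = 0.11) and without clone 2 at 32 h (2.36, adjusted p = 0.088). The interaction with stage was 2.80 ± 0.88 (adjusted p = 0.087), and with the line as a block it was 2.82 (adjusted p = 0.03). More of all genes were called in this interaction with the block as well.

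Across the 3 stages, Gata3 in Zfp281 KO cells was at 2.02 and 1.69 CPM at ESC, 2.83 and 1.98 CPM at 16 h, and 1.23 and 0.959 CPM at 32 h. In WT cells it was at 0.902 and 0.947 CPM at ESC, 1.66 and 0.741 CPM at 16 h, and 0.838 and 0.643 CPM at 32 h. At each of these stages both KO clones lay above both WT lines, with no count of how many of all genes do so. The log2 difference at ESC was 1.00 ± 0.45 (adjusted p = 0.18). At 16 h it was 1.01 ± 0.38 with adjusted p = 0.078, and by 32 h 0.56 ± 0.45 with adjusted p = 0.39. None was called with all libraries. Without the line Zfp281_WT the values were 0.97 at ESC, 0.53 at 16 h and 0.36 at 32 h. Without the line WT they were 0.98, 1.70 and 0.77.

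Hand1 (Entrez 15110, GRCm38 chromosome 11, 57828713 to 57832147, protein coding) is a basic helix-loop-helix factor of giant cells and of mesoderm. It was the member that was higher after 2i withdrawal: in all 12 lines sampled at both stages its level at 32 h was above that at ESC. By the 1 CPM limit Hand1 was not measured in any group at ESC, where group means were 0.0986 to 0.819 CPM. It was also not measured in Ehmt1 KO cells at 32 h (mean 0.897 CPM). Its stage differences and its genotype differences at ESC therefore rest on levels under the limit. No promoter window of Hand1 was held.

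Hand1 at 32 h was at 1.73 and 1.84 CPM in Zfp281 KO cells, against 0.332 and 0.184 CPM at ESC (log2 fold change 2.77 ± 0.67, adjusted p = 0.015, and 2.70 without Zfp281_WT in the fit). In Ehmt1/Zic2 KO cells it was at 0.708 and 3.43 CPM, against 0.138 and 0.340 CPM at ESC (3.09 ± 0.85, adjusted p = 0.029), and clone 2 at 32 h had the highest Hand1 level of all libraries. In neither genotype did the stages overlap. The Zfp281 KO call was lost without any of its 4 libraries (adjusted p = 0.084 to 0.17). That of Ehmt1/Zic2 KO was lost without clone 1 or clone 2 at ESC or without clone 2 at 32 h (1.55, adjusted p = 0.32).

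In the other groups the difference was not called without the block and was called with the line as a block. The block also called more of all genes in ribo-depleted WT and Ehmt1 KO cells, as counted in the closing section. The blocked calls of Hand1 are therefore set beside no share. For Ehmt1 KO cells the values were 3.10 ± 1.09 (adjusted p = 0.058) and 3.13 (0.0021 with the block), and for Zic2 KO cells 2.1 ± 0.85 (adjusted p = 0.077) and 2.1 (0.0025 with the block). For polyA WT cells they were 1.35 ± 0.72 (adjusted p = 0.17) and 1.4 (0.007 with the block), and for ribo-depleted WT cells 1.26 ± 0.64 (adjusted p = 0.2) and 1.37 (0.024 with the block). Without the line Zfp281_WT and without the block, the value for ribo-depleted WT cells was 1.92. At ESC, Hand1 was at 0.332 and 0.184 CPM in Zfp281 KO cells, against 0.273 and 0.797 CPM in WT cells (adjusted p = 0.35). At 32 h both clones lay above both WT lines (log2 difference 0.503 ± 0.614, adjusted p = 0.57). Without Zfp281_WT the log2 difference was -0.144 at ESC and 0.639 at 32 h. Without the line WT it was -1.598 and 0.35. The interaction was 1.506 ± 0.91 (adjusted p = 0.55), 0.783 without Zfp281_WT and 1.949 without the line WT.

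At 16 h, Hand1 was at 1.42 and 0.990 CPM in Zfp281 KO cells, against 1.07 and 0.655 CPM in WT cells, and the groups overlapped (0.49, adjusted p = 0.33; 0.17, adjusted p = 0.77, without Zfp281_WT; 0.88, adjusted p = 0.072, without the line WT). At ESC it was at 0.0917 and 0.106 CPM in Ehmt1 KO cells, 2 counts in each clone, against 1.19 and 0.451 CPM in WT cells (-3.00 ± 1.11, adjusted p = 0.061). At 32 h it was at 1.39 and 0.399 CPM in Ehmt1 KO cells, against 2.24 and 1.99 CPM in WT cells (adjusted p = 0.22). In both comparisons the Ehmt1 KO clones lay below the WT lines. So did, at ESC, the Ehmt1/Zic2 KO clones at 0.138 and 0.34 CPM (-1.775 ± 0.937, adjusted p = 0.15). Zic2 KO clones also lay below WT. They were at 0.261 and 0.372 CPM at ESC (-1.35 ± 0.90, adjusted p = 0.68) and at 0.885 and 1.88 CPM at 32 h (-0.61 ± 0.68, adjusted p = 0.88). At 32 h Ehmt1/Zic2 KO cells overlapped WT cells (-0.04 ± 0.65, adjusted p = 0.97).

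Over the 5 members, the stage comparisons called Cdx2 and Tfap2c lower in polyA WT cells (35.7% of genes called), in Ehmt1 KO cells (22.5%), in Zic2 KO cells (30.9%) and in ribo-depleted WT cells (25.9%). In Zfp281 KO cells they called Cdx2 and Tfap2c lower and Hand1 higher (24.7%), and in Ehmt1/Zic2 KO cells Cdx2 lower and Gata3 and Hand1 higher (14.4%).

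**Figure D3:**
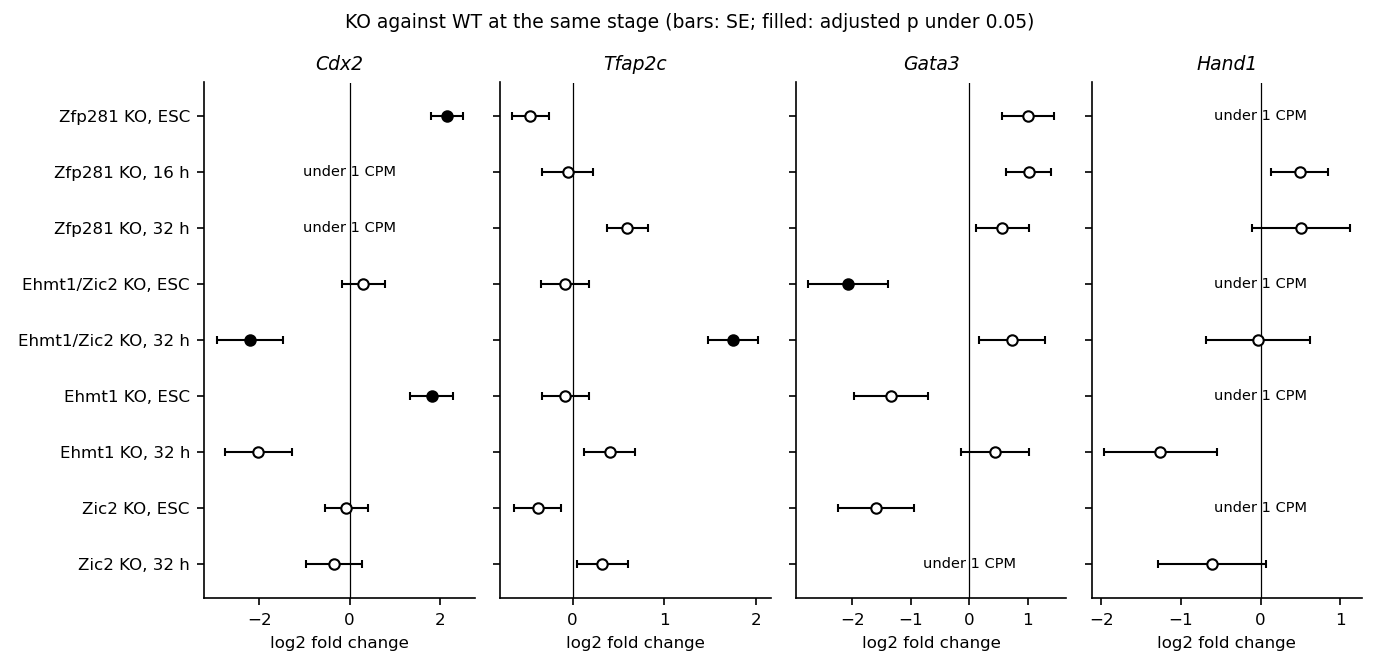
Log2 fold change of KO against WT cells at the same stage for the same 4 genes, with SE as bars and filled points for adjusted p under 0.05. A row reads "under 1 CPM" where both group means were below that limit. The filled points are Cdx2 in Zfp281 KO (2.15) and Ehmt1 KO (1.81) cells at ESC and in Ehmt1/Zic2 KO cells at 32 h (-2.20), Tfap2c in Ehmt1/Zic2 KO cells at 32 h (1.75) and Gata3 in Ehmt1/Zic2 KO cells at ESC (-2.08).

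The members were set beside 15 other trophoblast regulators. In Ehmt1/Zic2 KO cells at 32 h, where 39.1% of all genes were called and 21.4% as higher, 6 of the 15 were higher than in WT cells and 0 lower (median log2 fold change 0.74, against 0.02 over all genes). Tead4, the Hippo effector above Cdx2 and Gata3, was at 9.54 and 7.96 CPM in Ehmt1/Zic2 KO cells, against 1.71 and 1.78 CPM in WT cells (2.32 ± 0.25, adjusted p = 2.8e-05). Plet1, a surface protein of trophoblast precursors, was at 14.5 and 29.2 CPM, against 2.06 and 2.20 CPM in WT cells (3.35 ± 0.46, adjusted p = 0.00016). Tfeb, a lysosomal regulator needed for placental vessels, and Elf3, an epithelial Ets factor, were higher by 2.25 ± 0.38 and 1.32 ± 0.24. In Ehmt1 KO cells at 32 h, where 26.6% of genes were called and 15.1% as higher, 4 of 15 were higher and 0 lower (median 0.52, against 0 over all genes): Plet1 (2.92 ± 0.46), Tfeb, Tead4 and Elf3.

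At ESC the list was mixed in these genotypes, where 39.4% of genes were called in Ehmt1/Zic2 KO and 26.9% in Ehmt1 KO cells. In Ehmt1/Zic2 KO cells 2 were higher and 4 lower, with Plet1 (2.70 ± 0.46) and Sox21, a repressor of Cdx2 (1.80 ± 0.47), higher and Msx2 (-1.67 ± 0.24) and Eomes (-1.15 ± 0.26) among the lower. In Ehmt1 KO cells Plet1 (2.14 ± 0.46) and Sox21 (1.79 ± 0.47) were higher and Msx2 was lower. In Zic2 KO cells none of the 15 was called at ESC or at 32 h. The medians at ESC were -0.09, -0.12 and -0.15 in Ehmt1/Zic2 KO, Ehmt1 KO and Zic2 KO cells, against 0, -0.01 and -0.01 over all genes.

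In Zfp281 KO cells at ESC, where Cdx2 was higher, 4 of the 15 were higher and 2 lower (median 0.28, against -0.04 over all genes), where 13.8% of genes were called, 8.5% as higher. Runs without a WT line called more of all genes, so their list counts are not set beside this share. Sox21 (1.76 ± 0.18, adjusted p = 4e-04), Id2 (1.70 ± 0.23), Eomes, the T-box factor of trophoblast stem cells (0.99 ± 0.10, adjusted p = 4e-04), and the trophoblast growth factor receptor Fgfr2 (0.60 ± 0.12) were the higher ones. Tfap2a, the paralog of Tfap2c, was lower at ESC (-1.66 ± 0.48, adjusted p = 0.048), at 16 h (-1.52 ± 0.28) and at 32 h (-1.85 ± 0.55). At 16 h the counts were 6 higher and 1 lower, and at 32 h 5 higher and 2 lower, with Eomes at 1.51 ± 0.11 and Tead4 at 1.25 ± 0.15. The medians were 0.56 and 0.47, against -0.01 and -0.07 over all genes, and 28.6% and 28.5% of genes were called.

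During exit from 2i in WT cells, 8 of the 15 fell and 2 rose in the ribo-depleted set and 7 fell and 2 rose in the polyA set (median -0.81 in each, against 0.02 and 0.01 over all genes), where 25.9% and 35.7% of genes were called. On the log2 scale Tead4 changed by -3.27 and -3.75, Msx2 by -2.59 and -4.13, and Id2 by 2.18 and 3.12. With the line as a block the counts were 10 fallen and 3 risen, and 9 fallen and 3 risen. The shares above are without the block, which called more of all genes in ribo-depleted WT cells. No share with the block is set beside these counts, so no reading of the list rests on their increase. Tead4 also differed in its response: the interaction was 2.93 ± 0.33 in Ehmt1/Zic2 KO cells (adjusted p = 0.00064), 1.82 ± 0.34 in Ehmt1 KO cells (adjusted p = 0.018) and 1.16 ± 0.18 in Zfp281 KO cells (adjusted p = 0.01).

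Products of trophoblast epithelium and placenta were listed as 17 genes. In Zfp281 KO cells at ESC, 5 of 13 tested were higher and 0 lower (median -0.07, against -0.04 over all genes, with 13.8% of genes called). The higher ones included the keratins Krt19 (1.88 ± 0.27), Krt8 (1.14 ± 0.20) and Krt7 (2.26 ± 0.48) and the X-linked homeobox gene Rhox9 (1.51 ± 0.34). In each run without a WT line, where more of all genes were called, some of the list were lower as well. The sum of the list was 56.3 to 63.0 CPM in Zfp281 KO cells, against 48.6 to 49.6 CPM in WT cells. The placental hormones Prl3d1, Prl3b1 and Prl2c2, the syncytins Syna and Synb, and Tpbpa had no count in the KO libraries at ESC.

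In Ehmt1/Zic2 KO cells at 32 h, 3 of 11 tested were higher and 0 lower (median 0.01, against 0.02 over all genes; 39.1% of genes called, 21.4% as higher): Cdh3, P-cadherin (1.41 ± 0.17), Plac1 (3.01 ± 0.80) and Krt19 (2.69 ± 0.90). The sum was 134 to 173 CPM, against 77.4 to 83.3 CPM in WT cells. At 32 h the sums in Ehmt1 KO (68.6 to 86.2 CPM) and Zic2 KO cells (74.6 to 84.4 CPM) overlapped that of WT cells. At ESC the sum was 84.3 to 93.5 CPM in Ehmt1/Zic2 KO, 81.15 to 89.7 CPM in Zic2 KO and 34.5 to 38.2 CPM in Ehmt1 KO cells. In WT cells at ESC it was 49.0 to 54.0 CPM. In Ehmt1 KO cells 1 was higher at 32 h, Plac1 (3.21 ± 0.80), and 2 were lower at ESC (26.6% and 26.9% of genes called). During exit in WT cells, where 25.9% and 35.7% of genes were called, 5 of 13 rose in the ribo-depleted set and 4 of 11 rose and 1 fell in the polyA set, Krt18 by 2.22 and 1.73 and Rhox9 by 1.93 and 1.56 on the log2 scale. With the line as a block 6 of 13 rose in the ribo-depleted set, and 8 of 11 rose and 1 fell in the polyA set. The shares of all genes called are again without the block, which called more in ribo-depleted WT cells. With no blocked share beside them, the larger list counts are not read as a result in either set. Prl2c2, Prl3d1 and Synb were at 0 in every group.

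Paralogs of the members beyond Cdx1 and Tfap2a moved in several directions. Ehf, an epithelial Ets factor related to Elf5, was higher at 32 h in Ehmt1/Zic2 KO cells (4.80 ± 0.47) and in Ehmt1 KO cells (4.27 ± 0.49). Gata1, the erythroid relative of Gata3, was higher by 3.04 ± 0.57 and 3.01 ± 0.57, and Gata4, an endoderm factor, was lower (-2.07 ± 0.42 and -1.87 ± 0.42). Of 10 tested paralogs, 3 were higher and 1 lower in each of these comparisons (medians 0.52 and 0.20, against 0.02 and 0 over all genes), where 39.1% and 26.6% of genes were called.

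Markers of other cell types were counted beside the members, where the share of all genes called was 13.8% in Zfp281 KO and 26.9% in Ehmt1 KO cells at ESC and 39.1% in Ehmt1/Zic2 KO cells at 32 h. Bmp targets, which respond to a signal that can lead to trophoblast, were higher for 3 of 8 genes and lower for 0 in Zfp281 KO cells at ESC (median 0.55), with Id3 at 1.51 ± 0.13 and a sum of 168.5 to 179 CPM, against 94.0 to 126 CPM in WT cells. They were higher for 2 of 8 in Ehmt1/Zic2 KO cells at 32 h (median 0.58), with Id4 at 3.25 ± 0.41 and a sum of 60.6 to 73.3 CPM, against 37.0 to 39.4 CPM in WT cells. Primitive streak and mesoderm markers, which include Cdx1, were lower for 4 of 9 in Ehmt1 KO cells at ESC (median -1.06), with a sum of 20.4 to 48.2 CPM, against 85.0 to 112 CPM in WT cells, and 1 of 10 was higher in Zfp281 KO cells at ESC. Primitive endoderm markers had 0 of 8 called in Zfp281 KO cells at ESC and 1 higher and 1 lower in Ehmt1 KO cells. Of fibroblast markers, 1 of 11 was higher in Zfp281 KO cells and 1 of 7 in Ehmt1 KO cells at ESC. The part of these lists in the Cdx2 and Tfap2c results was not tested.

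Genes whose pattern was most like that of a member were ranked by the smaller of 2 Pearson correlations of log2(CPM + 1), over 16 polyA libraries and over 8 ribo-depleted libraries, among 10784 genes. These libraries share stages and genotypes, so the values are a description. For Cdx2 the closest were Fam118a (0.94 and 0.97), Irx2 (0.94 and 0.95) and Pglyrp1 (0.94 and 0.97). For Tfap2c they were Erlin1 (0.96 and 0.97), Zfp710 (0.96 and 0.96) and Ulk1 (0.95 and 0.97). Gata3 and Hand1 never reached the 5 CPM asked of the ranked genes; their closest were Arf2 (0.73 and 0.74) for Gata3 and Akna (0.87 and 0.91) for Hand1. Among the members, Cdx2 and Tfap2c gave 0.72 and 0.68, Cdx2 and Hand1 gave -0.68 and -0.91, and Cdx2 and Gata3 gave -0.56 and 0.82.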

How the data were processed

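The 2 tables deposited by the authors hold raw counts per Entrez gene, 24 libraries at ESC and 32 h and 4 at 16 h. The submitters' processing notes name the GRCm38 (mm10) build and the tool edgeR. The sources used here do not give the aligner, counter, annotation, strand setting or filters, so reads of paralogs or overlapping genes could be split. The title labelled WT was placed with the ribo-depleted libraries because the 16 h table pairs it with Zfp281_WT. No column was left unmapped (0).

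Symbols came from RefSeq genes of GRCm38.p6 (24061 of 24116 IDs matched) and exonic lengths from GENCODE. The ribo-depleted ESC and 32 h, the 16 h and the polyA libraries were fitted apart: filterByExpr (minimum count 10, minimum total 15), TMM, edgeR 4.0.16 quasi-likelihood with robust dispersion, Benjamini-Hochberg over all genes of the fit, a call at adjusted p under 0.05 (R 4.3.3). Each adjusted p in the text is from this test unless another is named. An SE was taken as |log2 fold change| over the root of the F statistic. CPM uses TMM-scaled library sizes. The test code was tested on simulated data.

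The members and lists were chosen with earlier results of these data known. The rule for named genes took the members, their paralogs with any value, the targeted genes, and per list and comparison up to 4 called genes with the smallest adjusted p. It also took the 3 genes most like each member that was measured in both sets. Genes named in a count of 5 or fewer beyond this were chosen after their values were seen.

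Each KO clone or WT line was sampled at both stages, so the line pairs ESC with 32 h; same-line deviations from the group means correlated at 0.07 to 0.81 across genes. Blocked values stand beside results whose call they change. Alternatives were RLE size factors, DESeq2 1.42.0, no filter, only the groups compared, the block, and leaving out each library or WT line. The Zfp281 motif was searched in a form of 9 letters, a base shorter than first written down.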

Additional observations from a re-analysis of the deposited data

Results flagged for a closer look

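The response of Cdx2 to 2i withdrawal differed between Ehmt1 KO and WT cells by a test of the interaction itself, with a log2 value of -3.83 (adjusted p = 0.046, edgeR). Cdx2 was lower at 32 h than at ESC in both KO clones and both WT lines. The response of Tfap2c differed between Ehmt1/Zic2 KO and WT cells in the same way, with a log2 value of 1.84 (adjusted p = 0.014). Tfap2c was lower at 32 h than at ESC in all 4 lines, and the drop was smaller in the 2 KO clones than in the 2 WT lines. Groups of 2 libraries were not tested for an outlying library. The line Zfp281_WT stood apart by its olfactory receptor counts, as given in the report.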

How the results depend on the processing

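Of 25 called member results, 12 kept direction and call in every alternative run: the falls of Tfap2c in 5 groups, of Cdx2 in the 5 groups other than ribo-depleted WT cells, and the higher Tfap2c of Ehmt1/Zic2 KO cells at 32 h against WT and Zic2 KO cells. The other 13 lost the call in some setting.

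With no filter on low counts, Cdx2 in Ehmt1/Zic2 KO against WT cells at 32 h was -2.22 (adjusted p = 0.069) and the Cdx2 interaction of Ehmt1 KO -3.83 (0.11). With only the groups compared, these were -2.19 (0.072) and -3.82 (0.11), the Cdx2 fall in ribo-depleted WT cells was -2.90 (0.073), and the rises of Gata3 and Hand1 in Ehmt1/Zic2 KO cells were 2.26 (0.13) and 3.10 (0.17). With DESeq2, Elf5 in Ehmt1/Zic2 KO against Zic2 KO cells at 32 h had a fitted value of 4.36 (0.053). The cause was not tested.

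Leaving out each library in turn gave these log2 ranges. Cdx2 ranged from 1.61 to 3.09 in Zfp281 KO and from 1.02 to 2.33 in Ehmt1 KO against WT at ESC, from -3.78 to -1.42 in Ehmt1/Zic2 KO against WT at 32 h, and from -5.17 to -3.02 in the Ehmt1 KO interaction. The Tfap2c interaction ranged from 1.56 to 2.25. Gata3 ranged from -3.11 to -1.46 in Ehmt1/Zic2 KO against WT at ESC and from 1.62 to 3.28 between its stages. Hand1 ranged from 1.55 to 3.84 between the stages of Ehmt1/Zic2 KO and from 2.33 to 3.18 between those of Zfp281 KO cells. Fitted Elf5 values, which are no bound, ranged from 4.51 to 6.41 for Ehmt1 KO, from 6.08 to 6.40 for Ehmt1/Zic2 KO against WT, and from 3.16 to 6.27 against Zic2 KO at 32 h. Tfap2c in Zfp281 KO against WT at 16 h was 0.43 without Zfp281_WT and -0.41 without the line WT, against -0.06 with all libraries.

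Some members not called above were called elsewhere. With DESeq2, Cdx2 in Ehmt1 KO at 32 h was -2.04 (0.008), Tfap2c in Ehmt1/Zic2 KO against Ehmt1 KO at 32 h 1.34 (0.00042), and the Cdx2 interaction of Ehmt1/Zic2 KO -2.53 (0.024). KO clone numbers only share a number (deviations correlated at -0.09 to 0.26). With the clone number as a replicate block, Tfap2c in Ehmt1/Zic2 KO against Ehmt1 KO at 32 h was 1.35 (0.04), and the count of genes edgeR called between these genotypes at ESC was 0 (1263 at unadjusted p under 0.05), against 15 without the block. The line block changed no member call beyond those given in the report.

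Counts of called genes moved by over 1.5 times in 38 of 104 other settings and in 65 of 96 leave-outs. With only the groups compared, the stage counts were 2298 for ribo-depleted WT (4921 in the report), 8754 for Zfp281 KO (4679), 1653 for Ehmt1 KO (3526), 8110 for Zic2 KO (4838) and 319 for Ehmt1/Zic2 KO (2251). Against WT they were 207 (43) and 1516 (12) for Zic2 KO at ESC and 32 h and 3386 (6166) for Ehmt1/Zic2 KO at ESC, the interactions 132 (291) and 374 (829) for Ehmt1 KO and Ehmt1/Zic2 KO, and those of Ehmt1/Zic2 KO against Ehmt1 KO 0 (15) and 0 (35), with 728 and 1154 at unadjusted p under 0.05. With the line block the stage counts were 7525 for ribo-depleted WT, 7553 for Zfp281 KO, 5509 for Ehmt1 KO and 4310 for Ehmt1/Zic2 KO, and the interactions 2605 (786) for Zfp281 KO, 1361 for Ehmt1 KO and 2611 for Ehmt1/Zic2 KO. Without Zfp281_WT, Zfp281 KO gave 5511 (2618) at ESC, 8839 between stages and 2988 for the interaction, and without the line WT 11203 at ESC, 12056 (5400) at 32 h, 8856 between stages and 3300. DESeq2 gave 274 and 165 for Zic2 KO, 624 and 1349 for the interactions, and 184 and 261 for Ehmt1/Zic2 KO against Ehmt1 KO, where RLE gave 7 at ESC. With no filter these were 94 and 48 for Zic2 KO and 36 and 69. DESeq2 called 47.9% of its Zic2 KO genes at 32 h higher, against 58.3% with edgeR. The list counts with the block, and the remarks on lists without a WT line, were chosen after seeing the data. Depth limits Elf5, Gata3, Hand1 and Cdx2 at 32 h, which rest on few counts per library.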
